A study of Caenorhabditis elegans with 5 samples.

Results

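The nuclear hormone receptor genes of *Caenorhabditis elegans* that carry a numbered *nhr* name were followed across 5 arrays of worms cultured under different gravity. They were taken as every gene whose probe set on the array carried exactly 1 gene symbol in the platform annotation and whose symbol was *nhr* with a number. This gave 254 of the 17118 genes measured by such probe sets, on 293 probe sets, and where a gene had several, the probe set brightest on average was used. The rule rests on names alone and uses no measured difference between conditions. The family was chosen with earlier results of these data known.

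Each of the 5 arrays, an Affymetrix whole-genome design read in 1 colour, was hybridised with RNA pooled from 100000 wild-type Bristol N2 worms of mixed stages, kept at 20 °C for 10 days in the liquid medium CeMM. One group had flown in space and is labelled microgravity. In the clinorotation group the worms were rotated, which keeps changing the direction of gravity, and a hypergravity group had a raised gravity, given as 3 G in one label and as 10 G in another. A pair of 1 G ground controls stayed at the operation site and at Tsukuba space center. Every group had 1 array, so no treated group has a spread of its own, and the only error available is the difference between the 2 controls, which the labels place at separate sites. Because the RNA is from whole worms, fewer cells of a type and less RNA per cell cannot be told apart in any value below.

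Nuclear hormone receptors are transcription factors with a zinc finger domain that binds DNA and a second domain that can bind a small lipophilic molecule such as a steroid or a fatty acid. The nematode family is far larger than that of insects or vertebrates. Most of its members descend from an ancestor related to HNF4, a receptor that controls metabolism in the vertebrate liver, and only a minority have direct counterparts in other animal groups. In the worm, receptors that have been studied act in moulting, fat and diet metabolism, responses to toxins and pathogens, and the development of single organs, while most have no described function.

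Levels are given as signals in arbitrary units, after the distributions of the 5 arrays were made equal by quantile scaling, and differences are in log2 units. A floor was set at 24.9, the 40th percentile over all probe sets and arrays, and lower values were raised to it. A signal depends on its probes, so a level can be compared between arrays but not between genes. As deposited, the trimmed mean signal of the arrays ran from 139 to 217, with the space flight array brightest and the Tsukuba control dimmest. Sperm gene signal differed between the arrays, and whether the worm populations differed in make-up was not tested. The summed signal of 12 sperm genes was 30375 in space flight, 6057 in clinorotation and 8938 in hypergravity, against 29277 in the operation-site control and 7497 in the Tsukuba control.

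Of the 254 receptor genes, 134 had a mean signal above the floor, or 52.8%, against 10076 of all 17118 genes, or 58.9%. Counts over the family below are over these 134, and the share of the 10076 genes that met the same rule is given with them. Of the 134, 117 were above the floor on each of the 5 arrays and 17 were at the floor on at least 1. A further 97 receptor genes were at the floor on all 5 arrays, and 23 had a mean under the floor but at least 1 array above it. Signal was found more often for receptors with low numbers. Among genes numbered 1 to 100, 68 of 90 were above the floor, and among those with higher numbers 66 of 164. Of members read on unique probe sets 108 of 226 were above it. Of those on probe sets with the suffix s, which may bind several transcripts, 24 of 26 were. The part of the probe sets in the difference by number was not tested. Of 11 members annotated as pseudogenes, 1 was above the floor.

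The family sits mostly on chromosome V, with 164 of 254 members, and 82 of these, 50%, were above the floor, against 44.9% of all genes of that chromosome. On the other chromosomes 52 of 90 members were above it (57.8%), against 63.6% of all genes there. Members often lie side by side. With at most 1 other protein-coding gene between neighbours, 123 members fell into 34 clusters, 24 of them on chromosome V, the largest with 9 members. Some clusters held members on both sides of the floor, which depends on each probe set. In one cluster of 9 on chromosome V, *nhr-158* alone was above the floor and the other members *nhr-124*, *nhr-157*, *nhr-159* and *nhr-185* to *nhr-189* were at the floor on every array. In a cluster of 8, *nhr-53* was above it and *nhr-51*, *nhr-52*, *nhr-196* to *nhr-199* and *nhr-268* were at the floor throughout. In another cluster of 7, which holds *nhr-55*, *nhr-99*, *nhr-106*, *nhr-130*, *nhr-131*, *nhr-211* and *nhr-212*, every member was above it.

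**Figure D1:**
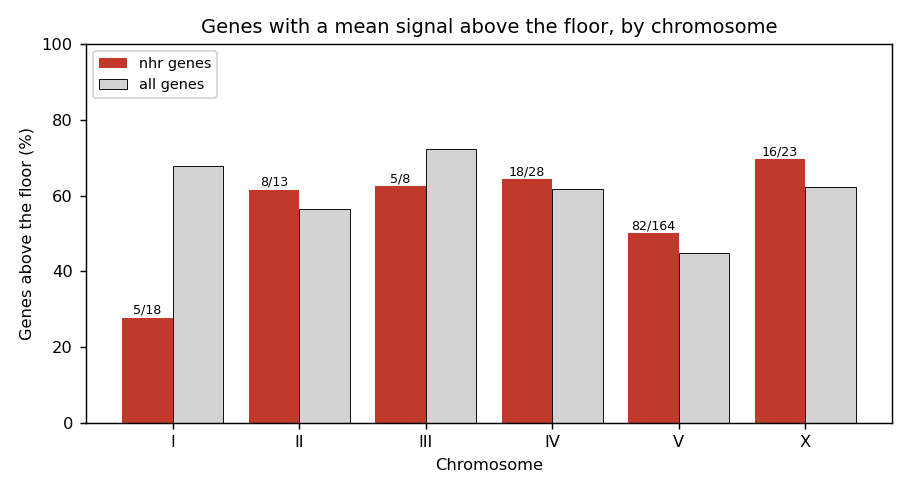
Share of genes whose mean signal lay above the floor, in percent, for nhr genes (red, with counts) and for all genes (grey) on each chromosome. Of the 164 members on chromosome V 82 were above the floor, and chromosome I had the lowest share, with 5 of 18.

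Space flight was set against the ground controls to find which receptor genes differ after culture in microgravity. More receptor genes lay below both controls than above both. Of the 134, 55 were below both, or 41.04%, while 29.4% of all genes were, and 30 were above both, or 22.4%, while 36.3% of all genes were. The median difference from the control mean was -0.096 (log2), against 0.033 over all genes. The shift was not even over the chromosomes. The 82 members on V had a median of -0.022, against -0.018 over all genes of V, with 40 higher and 42 lower. On X the 16 members stood at -0.25, against -0.15 over all genes of X. On I, II, III and IV the members stood at -0.13, -0.46, -0.036 and -0.17, against 0.11, 0.047, 0.075 and 0.079. Below both controls by more than the gap between the controls were 27 members, 20.1%, with 12.8% of all genes, and above them by that much were 15, or 11.2%, with 16% of all genes. Where a control was at the floor, the gap is a lower bound, in these counts and in those of the other conditions. These shares describe 1 array and carry no test. They hold relative to all genes: without scaling, the median of all genes stood 0.62 (log2) above the control mean, with 9 members below both controls (6.67%, with 4.54% of all genes) and 96 above (71.1%, with 80.9%).

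At least 2-fold below both controls were 2 members, *nhr-53* and *nhr-6*, where 0.516% of all genes were, and no member was 2-fold above, where 0.149% of all genes were. *nhr-53* read 32.8 in space flight, against 79.9 in the operation-site control and 129 in the Tsukuba control. *nhr-6*, the worm counterpart of the vertebrate NR4A receptors and required to form the spermatheca, read 26.8 in space flight, against 64.5 and 62.8 at the operation site and at Tsukuba. The space flight array was the lowest of the 5 for both genes. The fold distance to the nearer control was 2.44 for *nhr-53* and 2.34 for *nhr-6*. Both rest on probe sets that may bind several transcripts, and a second probe set of *nhr-6* read 25.8 in space flight, against 26.9 in the operation-site control and 41.5 in the Tsukuba control, a distance of -0.061 (log2). Neither gene kept its 2-fold distance without scaling, where *nhr-53* stood at -0.81 and *nhr-6* at -0.63 (log2) from the nearer control, nor with the floor at the 60th percentile, where the distance of both was 0. With unique probe sets alone 0 members were 2-fold outside.

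*nhr-43* followed just under 2-fold. It read 75.03 in space flight, against 149.9 in the operation-site control and 439.6 in the Tsukuba control, with 297 in clinorotation and 185 in hypergravity. The controls themselves were 2.93-fold apart on this gene, so its distance to the nearer control (-0.998, log2) is smaller than the gap between them. *nhr-237* was at the floor in space flight, against 43.2 and 47.4 at the operation site and at Tsukuba, and was thus at least 1.73-fold lower. *nhr-129* read 25.3, against 42.1 and 43.7, and *nhr-170* 28.8, against 49.8 and 43.4. In both, the space flight array was below every other array.

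*nhr-3* differed at a higher signal, at 330.1 in space flight, against 499.6 in the operation-site control and 495 in the Tsukuba control. The 2 controls nearly coincided on the probe set used, with a control SD of 0.0086 (log2, n = 2), and space flight stood at -0.59 from the nearer one. On a second probe set of *nhr-3* space flight was also below both, at -0.26. There the controls read 172 and 246 at the operation site and at Tsukuba, and their difference, -0.51 (log2), was larger than that distance. *nhr-55* completed the 8 members farthest below both controls, at 36.1 in space flight, against 58.7 and 52.8 at the operation site and at Tsukuba.

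**Figure D2:**
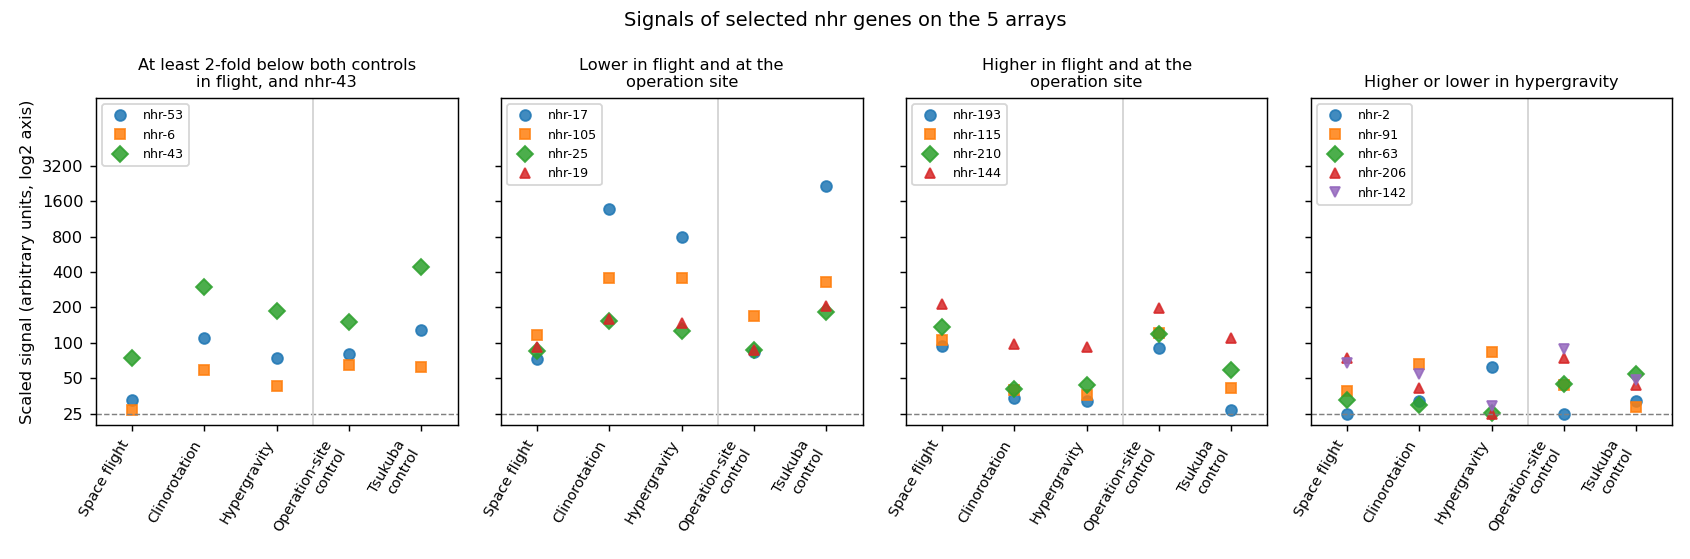
Scaled signal (arbitrary units, log2 axis) of selected nhr genes on the 5 arrays, 1 point per gene and array, with the treated groups left of the grey line and the 2 ground controls right of it. The dashed line is the floor of 24.9, on or near which nhr-6 sat in space flight and nhr-206 in hypergravity, and nhr-17 spans 73.0 in space flight to 2143 in the Tsukuba control.

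The receptor genes farthest above both controls in space flight were all under 2-fold. *nhr-141* read 45.5 in space flight, against 26.3 in the operation-site control and the floor in the Tsukuba control, 1.73-fold above the nearer one. *nhr-107* read 81.03, against 48.5 and 45.5 (1.67-fold), but its second probe set was below both, at -0.071 (log2) from the nearer one. *nhr-152* read 72.2, against 47.8 and 52.5, and *nhr-190* 65.1, against 48.1 and 33.2. Of these genes, *nhr-107* and *nhr-152* exceeded the higher control by more than the controls differed from each other, and *nhr-190* did not. For *nhr-141* this cannot be settled, because the Tsukuba control was at the floor and the gap is a lower bound. The remaining members named were *nhr-16*, *nhr-76* and *nhr-182*, at distances of 0.41, 0.35 and 0.33 (log2), and *nhr-178*. *nhr-178* was at the floor in both controls and thus at least 0.43 above them. For *nhr-76* the distance was smaller than the gap between the controls (0.79, log2).

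Across all 10076 genes, limma at a Benjamini-Hochberg adjusted p under 0.05 called 0 genes in space flight, members included, and 2 members (*nhr-6* and *nhr-53*) had an unadjusted p under 0.05, with 1.43% of all genes. *nhr-6* differed from the mean of the controls by -1.25 ± 0.34 (log2, SE), with an adjusted p of 0.970 in limma. Markers of tissues differed on the same array. Below both controls were 10 of 11 body wall muscle genes and 7 of 9 hypodermis genes, where 29.4% of all genes were. Of 10 neuron genes 5 were below and 0 above, of 10 intestine genes 4 and 2, and of 8 pharynx genes 2 and 1. The summed signal for muscle was 19832 in space flight, against 25414 and 24684 at the operation site and at Tsukuba. For hypodermis it was 13519, against 18160 and 15097. In the other direction, 11 of 12 oocyte and germ line genes and 10 of 12 sperm genes lay above both, where 36.3% of all genes did. The summed signal of the oocyte and germ line genes was 13032, against 10830 and 8742. For the sperm genes the sum was close to that of the operation-site control, at 30375, against 29277 and 7497. The part of these markers in the receptor values was not tested.

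**Figure D3:**
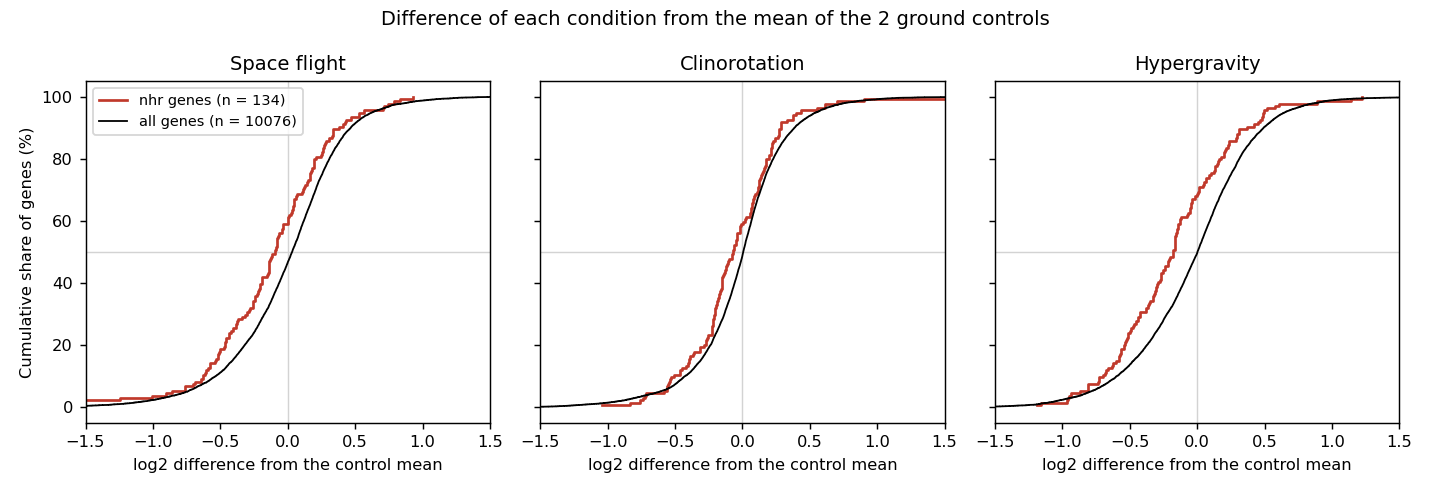
Cumulative share of genes (percent) by log2 difference from the mean of the 2 ground controls, for the 134 nhr genes above the floor (red) and all 10076 genes (black) in space flight, clinorotation and hypergravity. The red curve lies left of the black over most of its length, with medians of -0.096, -0.072 and -0.18, against 0.033, 0.0057 and 0.0013 for all genes; a few values fall outside the axis.

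Clinorotation is used on the ground as a model of microgravity. Of the 134 receptor genes, 47 were below both controls, or 35.1%, where 27.7% of all genes were, and 24 were above both, or 17.9%, where 28.4% of all genes were. The median difference from the control mean was -0.072 (log2), against 0.0057 over all genes. Members on V stood at -0.10, against -0.018 over all genes of V, and those on X at 0.15, against 0.032 over all genes of X. On I, II, III and IV the members stood at -0.044, -0.019, -0.12 and -0.11, against 0.020, -0.0020, 0.013 and -0.0049. Without scaling, the median of all genes stood 0.29 above, and 17 members were below both controls (12.6%, with 6.65% of all genes) and 75 above (55.6%, with 65.3%). Outside both were 71 members in all, 52.99%, with 56.1% of all genes. No member was 2-fold above both controls, where 0.0893% of all genes were, and none 2-fold below, where 0.0298% were, or 0.119% in both directions. Below both by more than the gap between the controls were 28 members, 20.9%, with 10.6% of all genes, and above by that much were 9, 6.72%, with 10.9%.

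*nhr-91*, the counterpart of the vertebrate germ cell nuclear factor GCNF, was the farthest above. It read 66.3 in clinorotation, against 43.99 in the operation-site control and 28.7 in the Tsukuba control, 1.51-fold above the nearer one. *nhr-28* read 114.4, against 58.1 and 85.2, and its second probe set also lay above both, by 0.29 (log2). *nhr-122* read 166, against 125 and 102. For *nhr-91* and *nhr-28* the excess over the higher control was smaller than the gap between the controls, and for *nhr-122* it was larger (0.41 against 0.30, log2). *nhr-107*, *nhr-158*, *nhr-22* and *nhr-137* stood 0.21 to 0.33 (log2) above the higher control, and *nhr-178*, at the floor in both controls, at least 0.27. The second probe set of *nhr-107* was below both here too, at -0.13 (log2).

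Farthest below was *nhr-180*, which read 62.3 in clinorotation, against 109 and 102 at the operation site and at Tsukuba. *nhr-230* read 37.3, against 65.1 and 59.2, and *nhr-63* read 29.9, against 44.8 and 54.2. In these 3 genes the distance to the nearer control, -0.71, -0.67 and -0.58 (log2), exceeded the gap between the controls. A second probe set of *nhr-230*, with a mean under the floor, went the other way. It read 28.9 in clinorotation, against the floor in both controls, and was thus at least 0.21 (log2) above them. *nhr-210*, *nhr-55*, *nhr-79*, *nhr-170* and *nhr-96* followed, at -0.52 to -0.39 (log2) from the nearer control. In limma, 0 genes passed an adjusted p under 0.05 in clinorotation. At an unadjusted p under 0.05 there were 0 members, with 0.328% of all genes. On the same array 11 of 12 sperm genes and 7 of 11 body wall muscle genes lay below both controls, where 27.7% of all genes did. So did 5 of 9 hypodermis genes and 5 of 10 intestine genes. Above both were 5 of 12 oocyte and germ line genes, where 28.4% of all genes were. Of 10 neuron genes 3 were below and 2 above, and of 8 pharynx genes 2 and 1. The summed signal was 23939 in clinorotation, against 25414 and 24684 at the operation site and at Tsukuba, for muscle, and 17165, against 20401 and 17194, for intestine. The part of these markers in the receptor values was not tested.

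In hypergravity most of the measured receptor genes lay below both controls. Of the 134, 73 did, or 54.5%, where 32.7% of all genes did, and 23 lay above both, or 17.2%, where 33.2% of all genes did. The median difference from the control mean was -0.18 (log2), against 0.0013 over all genes, and the quartiles were -0.49 and 0.099, against -0.29 and 0.25. On V, where all genes had a median of -0.080, the 82 members stood at -0.23. On X the members stood at -0.019, against -0.028 over all genes of X. On I, II, III and IV the members stood at -0.17, -0.16, -0.32 and -0.26, against 0.062, 0.010, 0.043 and -0.025. Below both controls by more than the gap between them were 40 members, 29.9%, with 16% of all genes, and above by that much 9, 6.72%, with 16%. Without scaling, the median of all genes stood 0.39 (log2) above the control mean, with 25 members below both controls (18.5%, with 9.86% of all genes) and 66 above (48.9%, with 66.4%). No member was 2-fold outside both controls, where 0.903% of all genes were.

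In hypergravity the share of members below both controls exceeded that of all genes among dim and among bright probe sets. The median gene above the floor had a mean signal of 162. Of the members under it, 59 were below both controls in hypergravity, or 53.2%, against 32.97% of all genes under it. Of the 23 members over it, 14 were, or 60.9%, against 32.4%. In space flight the same shares were 36.04% of the dimmer members, against 30.8% of the dimmer genes, and 65.2% of the brighter members, against 28.1%. In clinorotation they were 36.04%, against 28.6%, and 30.4%, against 26.8%.

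*nhr-63* was the member farthest below in hypergravity, at 25.3, close to the floor, against 44.8 in the operation-site control and 54.2 in the Tsukuba control. *nhr-206* was at the floor, against 73.9 and 43.9, and therefore at least 1.76-fold lower. *nhr-152* read 28.5, against 47.8 and 52.5. This gene had been above both controls in space flight. *nhr-142* read 29.3, against 88 and 48.7, and *nhr-136* 29.5, against 58.8 and 45.6.

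Members whose probe sets gave strong signals were also among the farthest below. *nhr-34* read 235 in hypergravity, against 400.4 and 378 at the operation site and at Tsukuba. *nhr-18* read 142.2, against 255 and 219, and *nhr-88* 851, against 1568 and 1271. All 3 were lower in hypergravity than on any other array. For *nhr-34* a second probe set was also below both, at -0.49 (log2) from the nearer control beside -0.68. For *nhr-88*, which has 4 probe sets, one more lay below both controls and 2 lay between them. In the chromosome V cluster that holds *nhr-18*, of the 7 members above the floor, 6 were below both controls (*nhr-18*, *nhr-96*, *nhr-103*, *nhr-133*, *nhr-134* and *nhr-184*) and *nhr-128* was between them. For *nhr-103* and *nhr-134* the distances, -0.23 and -0.14 (log2), were smaller than the gaps between the controls, 0.59 and 0.26. This cluster was picked out after its values were seen, where 54.5% of members and 32.7% of all genes were below both controls.

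The members farthest above both controls in hypergravity were *nhr-2* and *nhr-91*. *nhr-2*, which acts in the embryo, read 62.6 in hypergravity, against the floor in the operation-site control and 32.3 in the Tsukuba control, 1.94-fold above the nearer one. Of its 3 other probe sets, all with means under the floor, 2 were highest in hypergravity and 1 was at the floor throughout. *nhr-91* read 83.1 in hypergravity, against 43.99 and 28.7 (1.89-fold). *nhr-204*, *nhr-60*, *nhr-13*, *nhr-15* and *nhr-98* stood 0.24 to 0.40 (log2) above the higher control, and *nhr-178*, at the floor in both controls, at least 0.30.

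In limma, 0 genes passed an adjusted p under 0.05 in hypergravity, while 3 members (*nhr-2*, *nhr-34* and *nhr-88*) had an unadjusted p under 0.05, with 2.48% of all genes. *nhr-88* differed from the mean of the controls by -0.73 ± 0.22 (log2, SE), with an adjusted p of 0.948 in limma. On the same array 8 of 10 neuron genes and 8 of 11 body wall muscle genes lay below both controls, where 32.7% of all genes did. Above both were 9 of 12 oocyte and germ line genes, where 33.2% of all genes were. Of 9 hypodermis genes 4 were below and 3 above, and of 10 intestine genes 2 and 4. Of 8 pharynx genes 4 were below and 2 above, and of 12 sperm genes 1 and 0. The summed signal of the neuron genes was 6833 in hypergravity, against 8853 and 8541 at the operation site and at Tsukuba, and *rgef-1* and *unc-31* of that list were not above the floor. The part of cell make-up in the receptor values was not tested.

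The comparison of the operation-site control with the Tsukuba control shows how far receptor genes varied between untreated samples. Of the 134 genes, 68 were higher at the operation site, or 50.7%, with 52.6% of all genes, and 65 were lower, or 48.5%, with 46.9%. The median difference was 0.010 (log2), against 0.027 over all genes. In all 7 members (5.22%) were at least 2-fold apart, with 8.47% of all genes. At least 2-fold higher were 3 members (2.24%), where 4.4% of all genes were, and at least 2-fold lower were 4 (2.99%), where 4.07% of all genes were. The largest difference was that of *nhr-17*. Its signal was 73.01 in space flight, 1374 in clinorotation and 786 in hypergravity, against 83.8 in the operation-site control and 2143 in the Tsukuba control. The controls were thus 25.6-fold apart on this gene, with space flight close to the operation site and the other treated arrays closer to Tsukuba.

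Many receptor genes showed this split. In 58 of 134 members the space flight and operation-site arrays did not overlap with the other 3 arrays. In 29 of them flight and operation site were higher (21.6%, with 24.2% of all genes) and in 29 lower (21.6%, with 20.5%), so the receptors followed the split at about the rate of all genes. By position, the counts were as follows, with no test. Of the 82 members on chromosome V, 23 were higher in flight and at the operation site and 15 lower, and of the 52 on other chromosomes 6 were higher and 14 lower. Over all genes the shares were 26.6% higher and 21.1% lower on chromosome V and 23.6% and 20.3% elsewhere. No label names the place where worms of the clinorotation and hypergravity groups were kept, so site, sample and stage make-up cannot be told apart here.

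Among the receptors lower in flight and at the operation site were *nhr-105*, *nhr-19*, *nhr-25* and *nhr-43*. *nhr-105* read 117 in space flight, 358 in clinorotation and 358 in hypergravity, against 168 in the operation-site control and 327 in the Tsukuba control. *nhr-19* read 92.2, 161 and 147 in the same order, against 87.6 and 204. *nhr-21* was also 2-fold lower at the operation site, at 166 and 331 at the operation site and at Tsukuba, but read 125, 201 and 128 in space flight, clinorotation and hypergravity and did not separate the arrays. *nhr-12* and *nhr-201* differed by -0.89 and -0.85 (log2) between the controls.

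The 4 genes with the largest difference in the other direction all lay on chromosome V. *nhr-193* read 93.8 in space flight, 34.2 in clinorotation and 31.8 in hypergravity, against 91.2 and 26.7 at the operation site and at Tsukuba. *nhr-115* read 104.8, 39.8 and 36.2, against 122 and 41.1, and *nhr-210* 137, 40.6 and 43.5, against 119 and 58.4. *nhr-144* read 213, 98.4 and 92.4, against 199 and 109. The arrays with the high signals of these genes were also those with the high summed sperm gene signal given above, whose part in them was not tested. *nhr-142*, *nhr-110* and *nhr-80* were higher at the operation site by 0.79 to 0.85 (log2), and *nhr-179*, at the floor in the Tsukuba control, by at least 0.84.

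**Figure D4:**
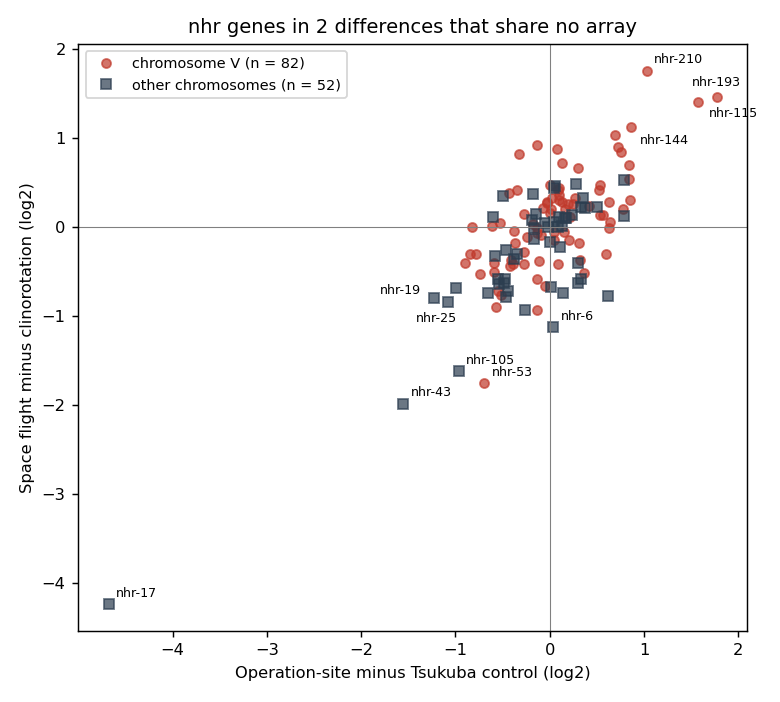
log2 difference of space flight minus clinorotation (vertical axis) against operation-site minus Tsukuba control (horizontal axis), 1 point per nhr gene above the floor, with genes of chromosome V in red. The 4 arrays are all different, and nhr-17 lies far from the rest at -4.68 and -4.23.

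The split can be read from 4 separate arrays. Across the 134 genes, the difference of space flight from clinorotation and that of the operation-site control from the Tsukuba control had a Pearson correlation of 0.77 and a Spearman correlation of 0.58, and without *nhr-17* the Pearson value was 0.66. Over all 10076 genes the values were 0.74 and 0.63. Genes are not independent replicates, each difference rests on a pair of arrays, and all 4 arrays were scaled together.

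Receptors with a described role were grouped by it. Over all genes, the shares below and above both controls were 29.4% and 36.3% in space flight, 27.7% and 28.4% in clinorotation and 32.7% and 33.2% in hypergravity, with medians of 0.033, 0.0057 and 0.0013 (log2) from the control mean, and each list here and below is read beside these. Of 11 receptors with counterparts in insects and vertebrates, 6 were above the floor, and *nhr-41*, *nhr-67*, *nhr-85*, *nhr-111* and *nhr-239* were not. In space flight 2 of the 6 were below both controls and 1 above. The counts were 3 and 2 in clinorotation and 3 and 1 in hypergravity, with medians of -0.11, 0.044 and -0.085 (log2) in the 3 conditions. *nhr-23*, the counterpart of the ROR receptors and a driver of moulting, read 75.1 in space flight, 60.1 in clinorotation and 72.5 in hypergravity, against 92.6 and 72.7 at the operation site and at Tsukuba. *nhr-25*, the counterpart of FTZ-F1, which acts in the epidermis and in moulting, read 84.97, 152 and 127, against 87.2 and 184. A second probe set of *nhr-25* showed the same split, with operation site minus Tsukuba at -1.07 beside -1.08 (log2). *nhr-48*, related to the vitamin D receptor, lay within 0.035 (log2) of the span of the controls on all 3 treated arrays.

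Of 9 receptors of fat, propionate and diet metabolism above the floor, 3 were below both controls in space flight and 2 above, 3 and 2 in clinorotation, and 5 and 2 in hypergravity, with medians of -0.036, -0.14 and -0.17 (log2). *nhr-49*, which switches on fat oxidation and desaturation genes, differed little between arrays. It read 789 in space flight, 731 in clinorotation and 714 in hypergravity, against 855 and 796 at the operation site and at Tsukuba. The distances from the nearer control were -0.012, -0.12 and -0.16 (log2). On a second probe set they were -0.25, 0.039 and -0.038 (log2). Its partner *nhr-80* read 75.9, 69.7 and 57.8, against 113.9 and 65.8, and *nhr-13* 104.8, 78.97 and 125, against 77.1 and 98.1. *nhr-66*, another partner, was between the controls in space flight and hypergravity and at -0.045 (log2) from the nearer one in clinorotation.

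*nhr-10* and *nhr-68*, which switch on the genes that break down propionate when vitamin B12 is short, were both lower in hypergravity. *nhr-10* read 234 in space flight, 258 in clinorotation and 191 in hypergravity, against 226 and 254 at the operation site and at Tsukuba, and *nhr-68* 90.7, 88.6 and 82.5, against 93.8 and 106. The distances in hypergravity were -0.24 and -0.19 (log2), beside differences between the controls of -0.17 and -0.18. *nhr-76*, which acts in serotonin-driven fat loss, read 99.01, 68.7 and 83.3, against 77.6 and 45. Its second probe set was likewise highest in space flight, at 114.3, against 105.2 and 41.5. *nhr-64* and *nhr-69* ranged from 158 to 261 and from 135 to 162 over the 5 arrays. *nhr-114* was not above the floor.

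Among 5 receptors of stress, toxin and pathogen responses above the floor, 2 were below both controls in space flight and 1 above, 2 and 0 in clinorotation, and 3 and 1 in hypergravity, with medians of 0.0083, -0.12 and -0.31 (log2). *nhr-8*, which supports resistance to toxins and cholesterol balance, read 135 in space flight, 99.9 in clinorotation and 106 in hypergravity, against 133 and 129 at the operation site and at Tsukuba. Here the controls lay close together, and clinorotation and hypergravity were below both, at -0.37 and -0.28 (log2) from the nearer one, while space flight was 0.023 above. *nhr-14* read 202, 173 and 155, against 269 and 213. *nhr-45* read 135, 209.9 and 179, against 189.8 and 275, but a second probe set put space flight between the controls (119.7, against 116 and 134). That probe set read 201 in clinorotation, 0.58 (log2) above the nearer control, where the one used lay between the controls. In hypergravity both probe sets were below both controls, at -0.076 and -0.083. *nhr-57*, a gene induced by the hypoxia factor HIF-1, was between the controls on all 3 treated arrays. *nhr-86*, which senses a bacterial metabolite in the intestine, was above both controls in hypergravity only, at 286, against 144.1 and 254. *nhr-176* was not above the floor.

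Of the receptors of embryo and organ development, 4 of 5 were above the floor. In space flight 3 were below both controls and 0 above, 1 and 0 in clinorotation, and 2 and 1 in hypergravity, with medians of -0.31, 0.094 and -0.28 (log2). *nhr-2* and *nhr-6* are given above. *nhr-31*, which shapes the excretory canal, read 275 in space flight, 321 in clinorotation and 246 in hypergravity, against 329 and 306 at the operation site and at Tsukuba. *nhr-40*, needed in embryonic muscle development, read 103, 159 and 119, against 115.2 and 161. Space flight was lowest of the 5 arrays for *nhr-40*, and on a second probe set too, at 44.4, against 62.3 and 161 at the operation site and at Tsukuba.

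**Figure D5:**
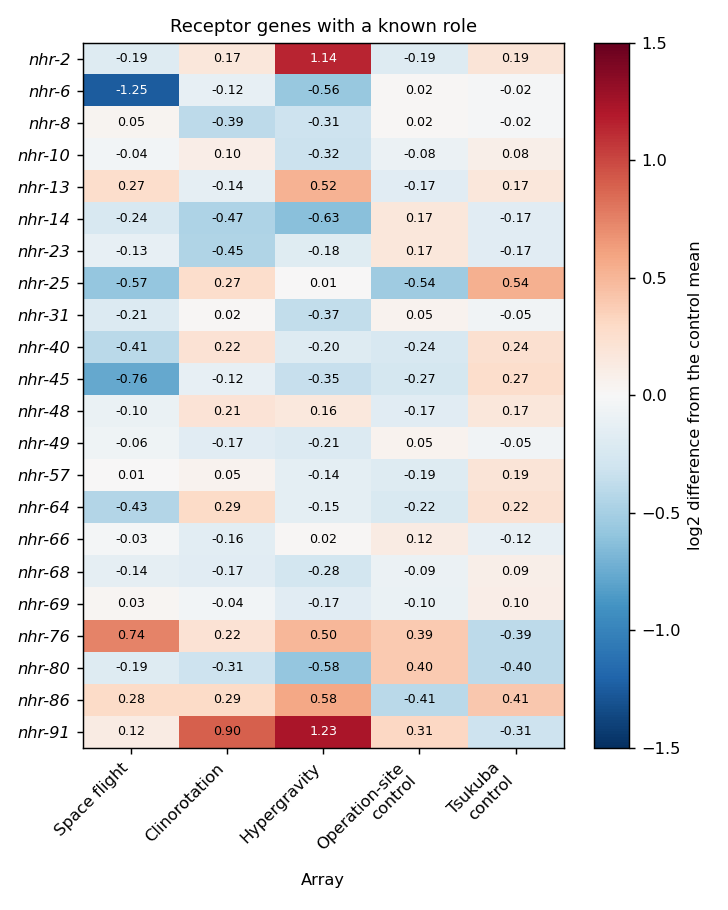
log2 difference of each array (columns) from the mean of the 2 ground controls for 22 nhr genes with a described role (rows), with the value printed in each cell and the colour scale from -1.5 to 1.5. The farthest cells are nhr-6 in space flight (-1.25) and nhr-91 and nhr-2 in hypergravity (1.23 and 1.14), and the control columns mirror each other because the difference is from their mean.

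Of the remaining genes with strong signals, *nhr-46* read 479 in space flight, 448 in clinorotation and 374 in hypergravity, against 555 and 496 at the operation site and at Tsukuba, below both on every treated array. Its second probe set was below both on these arrays as well. The distance exceeded the gap between the controls only in hypergravity on the probe set used, and only in space flight on the second. *nhr-4* read 336, 261 and 240.5, against 281 and 319. The 134 genes had a median range over the 5 arrays of 0.70 (log2), against 0.63 over all genes, and a median control SD of 0.23 (log2, n = 2), against 0.22.

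Nuclear receptors with other names, cofactors and ligand enzymes give the setting of the family. Of the receptors *daf-12*, *fax-1*, *odr-7*, *sex-1* and *unc-55*, 2 were above the floor. *daf-12*, the receptor for dafachronic acids, steroids that decide between growth and dauer arrest, read 516 in space flight, 718 in clinorotation and 480.4 in hypergravity, against 638 and 697 at the operation site and at Tsukuba. *sex-1*, which reads the number of X chromosomes, read 48.3, 61.5 and 97.9, against 48.9 and 81.1. *mdt-15*, the Mediator subunit that works with NHR-49, read 251, 361 and 339, against 275 and 386, and *cbp-1*, a histone acetyltransferase, stayed between 232 and 249. Of these 4 genes, *daf-12*, in space flight and hypergravity, lay outside both controls by more than their gap.

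*daf-9*, the cytochrome P450 that makes dafachronic acid, followed the split of the arrays, at 125 in space flight, 27.9 in clinorotation and 48.1 in hypergravity, against 114.8 in the operation-site control and 35.1 in the Tsukuba control. *strm-1* and the P450 reductase gene *emb-8* were between the controls on all 3 treated arrays, and *daf-36*, *dhs-16* and *hsd-1* were not above the floor.

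Of 6 targets of NHR-49 above the floor, 4 were below both controls in space flight and 1 above, 2 and 2 in clinorotation, and 1 and 3 in hypergravity, with medians of -0.61, 0.097 and 0.19 (log2). The flavin monooxygenase gene *fmo-2* was 2-fold below both in space flight, at 71.3, against 148 and 164 at the operation site and at Tsukuba, and the glyoxylate cycle gene *icl-1* read 2041, against 3819 and 5707. The acyl-CoA synthetase gene *acs-2* read 1453, against 1632 and 2769, in space flight. Of 5 propionate shunt genes, 2 were below both controls and 1 above in space flight, 3 and 2 in clinorotation, and 1 and 4 in hypergravity, with medians of -0.094, -0.22 and 0.13 (log2). Its first enzyme gene, *acdh-1*, read 61.4 in space flight, 117 in clinorotation and 143 in hypergravity, against 107 and 94.4 at the operation site and at Tsukuba. In hypergravity *acdh-1* was above both controls while its regulators *nhr-10* and *nhr-68* were below both.

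Of 6 methionine cycle genes downstream of NHR-114, 3 were below and 3 above both controls in space flight, 3 and 2 in clinorotation, and 2 and 2 in hypergravity, with medians of -0.035, -0.042 and 0.081 (log2). Of 6 moulting genes downstream of NHR-23, 5 were below and 1 above in space flight, where 29.4% and 36.3% of all genes were, 3 and 2 in clinorotation, where 27.7% and 28.4% were, and 2 and 3 in hypergravity, where 32.7% and 33.2% were. Their medians were -0.77, 0.031 and 0.21 (log2). The cuticle collagen gene *dpy-3* read 42.1 in space flight, against 79.6 and 234 at the operation site and at Tsukuba, and *mlt-10* read 61.3 in hypergravity, against signals near the floor in both controls. These lists were chosen with earlier results of these data known.

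Second probe sets bear on how far single genes can be trusted. For 24 members above the floor, 26 further probe sets were above it as well. Where the probe set used lay outside both controls in space flight, 13 of 19 further probe sets were on the same side, 4 between the controls and 2 on the opposite side. The counts were 9 of 13 with 2 and 2 in clinorotation, and 11 of 20 with 8 and 1 in hypergravity. Another 14 probe sets carry an *nhr* name together with a second identifier and entered no count. One of them is assigned to *nhr-62*, which acts in the response to dietary restriction, under 2 gene identifiers. It read 174 in space flight, 123 in clinorotation and 105.5 in hypergravity, against 152 and 90.3 at the operation site and at Tsukuba, and so followed the split of the arrays in its order. No such probe set was 2-fold above both controls on any treated array.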

How the data were processed

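The authors deposited an intensity for each probe set, on a linear scale and without detection calls. The software that summarised the probes is not given in the sources used. Per the labels, biotinylated cRNA was made from total RNA extracted with ISOGEN. Signals were log2 transformed, quantile normalized over 22548 probe sets because trimmed means differed, and floored at the 40th percentile. Of the probe sets, 20766 carried 1 gene symbol in the platform annotation, and all 254 members matched the RefSeq gene table (WBcel235) by identifier and symbol. That table lists 283 numbered *nhr* genes. No sequence was used here.

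Genes with a mean log2 signal above the floor were compared with both controls by position and size (2-fold) and with limma 3.58.1 in R 4.3.3 (lmFit, eBayes with trend, all 5 arrays, 1 residual degree of freedom, two-sided, Benjamini-Hochberg over 10076 genes). It assumes that lone arrays vary like the controls. The error of each gene comes from the difference between the 2 controls, drawn by eBayes towards the trend over all genes. That difference may hold site, population and technical parts, and no label says that cultures were separate. Named were, per condition and direction, up to 8 members farthest outside both controls, 8 per direction between the controls, the 10 brightest and those with a listed role. Members and lists were chosen with earlier results of these data known. The computations were tested on simulated data. Alternatives covered scaling, floor, probe set, fold, each control left out and the limma settings. Only 5 arrays limit the precision.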

Additional observations from a re-analysis of the deposited data

How the results depend on the processing

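The position of the receptor genes below the genome as a whole kept its sign in all 9 settings run: the family's median minus that of all genes ranged from -0.19 to -0.081 in space flight, -0.13 to -0.059 in clinorotation and -0.26 to -0.16 in hypergravity (log2). Positions against the controls themselves depend on scaling. Without it, members below both controls were 9 in space flight, 17 in clinorotation and 25 in hypergravity, those above were 96, 75 and 66, the medians were 0.43, 0.16 and 0.12, 2 members were 2-fold outside in hypergravity, and the controls' median difference was 0.13. With trimmed-mean scaling the medians were -0.14, -0.13 and -0.28, and 0.056 between the controls. With the floor at the 60th percentile, which leaves 54 members, 8, 12 and 7 members were above, 27, 19 and 32 below, 35, 31 and 39 outside, the medians were -0.14, -0.054 and -0.20, none was 2-fold outside in space flight (0), and between the controls 4 were 2-fold apart with a median of -0.15. With the floor at the 20th percentile 4, 2 and 5 were 2-fold outside, 35 were above in hypergravity, the medians were -0.11 in space flight and -0.17 in hypergravity, and between the controls 20 were 2-fold apart with a median of 0.041. With the median over a gene's probe sets the medians were -0.12, -0.046 and -0.17, and -0.025 between the controls, with 1 member 2-fold outside in space flight. With unique probe sets alone they were -0.083, -0.098 and -0.16, with 0 such members in space flight. At 1.5-fold, 9, 3 and 9 members were outside and 35 differed between the controls. Leaving out 1 control gave 50 to 55 above, 78 to 80 below and 130 to 133 outside in space flight, 48 to 60, 74 to 83 and 131 to 134 in clinorotation, and 37 to 45 above in hypergravity. The medians then were -0.12 to -0.075, -0.087 to -0.069 and -0.19, and 2-fold differences numbered 2 to 13, 1 to 7 and 6 to 11. Without the operation-site control, 13 members were 2-fold from Tsukuba in space flight, and without Tsukuba 2 were. limma called 0 members under every setting run. *nhr-53* and *nhr-6* fell short of 2-fold without scaling (-0.81 and -0.63) and at the higher floor, and *nhr-6* also with the median of its probe sets (-0.66). The cause of these changes was not tested, except that the higher floor keeps fewer genes. No paired analysis was possible because each condition has 1 array and the labels give no replicate numbers. Signals near the floor, as for *nhr-6*, limit what can be read from the dim members.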
